A study of Homo sapiens with 6 samples.

Results

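Protocadherins were examined by RNA sequencing in KYSE450 cells and KEAP1null-KYSE450 cells. The genes were chosen by symbol from the matrix of normalized counts: 16 genes of the α cluster (PCDHA and PCDHAC), 16 of the β cluster (PCDHB), 22 of the γ cluster (PCDHGA, PCDHGB and PCDHGC) and the 6 non-clustered genes PCDH1, PCDH7, PCDH9, PCDH10, PCDH17 and PCDH18. These are 60 of 58884 listed genes. KYSE450 is a human esophageal squamous cell carcinoma (ESCC) line with wild-type NRF2, the transcription factor that KEAP1 marks for degradation. KEAP1null-KYSE450 was derived from it with Cas9 and a guide RNA to exon 2 of KEAP1, followed by single-cell cloning. Neither line received a drug, and each is represented by 3 libraries, numbered here by their order in the matrix. Since the knockout is a single clone, any other difference between this clone and the parental population enters every comparison and cannot be told apart from loss of KEAP1. No source says whether the libraries of a line came from separate cultures, so p-values measure the spread between libraries only, which may be technical.

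Protocadherins are cadherin-type adhesion proteins that bind like molecules on a facing cell. The clustered genes stand in tandem on chromosome 5 and are best known from neurons, where each cell switches on a few variable promoters and so carries its own combination of isoforms. In the α and γ clusters each variable first exon, with its own promoter, is spliced to constant exons that all genes of the cluster share, while each β gene encodes a whole protein without them. Non-clustered protocadherins are single genes with diverse cytoplasmic tails and roles in cell sorting, neural wiring and epithelial adhesion.

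Each library held between 54829313 and 57380170 normalized counts. A value of 3 reads, which is 2.77 to 3.21 normalized counts depending on the library, was taken as the floor of detection, and this floor covers counting error only. KEAP1 mRNA was 5760, 5226 and 5146 in KYSE450 and 5737, 4907 and 5317 in KEAP1null-KYSE450. The lines overlapped (log2 fold change −0.02 ± 0.10 SE, adjusted p = 0.90, limma), so the level of this transcript did not check the label; a small edit in an exon need not change the count. NQO1, an NRF2 target, was 6.48-fold higher in KEAP1null-KYSE450 (adjusted p = 3.9e-10, limma). All 12 markers of squamous epithelium were expressed in both lines. By the thresholds given below, KRT4 (log2 fold change 5.17) and KRT5 (1.46) rose in KEAP1null-KYSE450, and KRT14 (−6.09) and KRT13 (−1.40) fell. Among all genes tested 12.2% rose and 5.98% fell. With the adjusted p alone 4 of the 12 were higher and 7 lower, against 24.3% and 25.5% of all genes tested. Of 13 neuronal markers 7 were tested and 4 rose: MAP2, NEFL, SNAP25 and NEFM (among all 16701 genes tested, 12.2% rose by the same thresholds). GAP43 went the other way, past the p threshold alone (log2 fold change −0.57, adjusted p = 0.038, limma). The summed neuronal markers were 668 to 712 in KYSE450 and 11400 to 13300 in KEAP1null-KYSE450. MAP2 (36.4 to 53.6 in KYSE450 and 7009 to 8548 in KEAP1null-KYSE450) and NEFL (44.9 to 97.9 and 3408 to 3951) carried nearly all of that difference, while DCX was at 0 in all libraries and STMN2, ELAVL3 and RBFOX3 did not exceed 6.05. Their part in the protocadherin differences was not tested. Of the 8 fibroblast markers COL1A1 alone was tested, and it was lower by the adjusted p alone (log2 fold change −0.85, adjusted p = 0.00074, limma). COL1A1 made up nearly all of the summed level, 624 to 856 in KYSE450 and 354 to 437 in KEAP1null-KYSE450. Of the 5 leukocyte markers none was tested, and of the 4 endothelial markers CDH5 fell and PECAM1 was at 0 throughout.

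In hg38 with the gencode v44 annotation, the α genes span chromosome 5 (plus strand) from 140786136 to 141012347, the β genes from 141051374 to 141249365 and the γ genes from 141330514 to 141512977. The exons of every γ gene include 2177 bases or more that other γ genes also carry, and a read in these constant exons belongs to no single gene. If such reads had been given to every gene, all γ genes would have had a common base level. They did not: PCDHGA3 was at 0 in each library while PCDHGC3 reached 674 normalized counts. The β genes share no exon with one another, but their coding sequences are paralogous, and how reads matching several of them were counted is not given in the sources used here. PCDHB2 shares 1797 of its 4098 exon bases with an antisense transcript, and PCDHB5 501 of 3410 with a different antisense transcript. Both of these transcripts were at 0 in all 6 libraries. Whether counting used the strand is not given either.

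Promoters of the clustered genes share a short conserved element with the core letters CGCT. RefSeq windows of 300 bases (GRCh38.p14, 250 before and 50 after the annotated start) were found for 52 of the 60 genes, and both strands were searched. Counting each gene once, the word CGCT by itself is in the windows of 71.9% of all 27305 genes. Among the 8-letter words that hold it, ATGTCGCT was the most shared in the α cluster (9 of 13 genes with a window). GTGGCGCT was the most shared in the β cluster (13 of 14) and GCCGCTGT in the γ cluster (11 of 20). These words were picked from the same windows, so the counts are a description. Over all 27305 genes they occurred in 0.282%, 1.38% and 1.98%. None was found in either other cluster or in the 5 non-clustered genes with a window. The stretches below, all on the plus strand of chromosome 5, are shown for the genes the comparison turns on, with the cluster's word in capitals.
PCDHA4, chr5:140806980-140807009: ggagccacatgATGTCGCTctttaccacaa
PCDHB2, chr5:141094545-141094574: agagacgcgggGTGGCGCTgcagccttaga
PCDHB5, chr5:141135180-141135209: taggacgcctgGTGGCGCTgcaggctaaga
PCDHB12, chr5:141208644-141208673: ggagacgcgtgGTGGCGCTgcaggataata
PCDHB15, chr5:141245315-141245344: gacaacgcatgGTGGCGCTgcaggctaagg
PCDHGB5, chr5:141397866-141397895: tgactctgggcGCCGCTGTtggccaaagtg
PCDHGC3, chr5:141475883-141475912: ggactctgtgtGCCGCTGTcggccaatgaa
Each word is common in its own cluster, and whether it bears on the differences between the lines was not tested.

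Of the 60 genes, 11 were at 0 in all 6 libraries, 8 more never exceeded the floor, 22 exceeded it in some library but had a mean below 10 and were not tested, and 19 were tested. In KEAP1null-KYSE450, PCDHB15 and PCDH7 rose, and PCDHB2, PCDHB5 and PCDH18 fell, with an adjusted p under 0.05 and a change of at least 1 on the log2 scale (limma, log2 of the normalized count plus 1). These were 10.5% higher and 15.8% lower of the 19 tested, against 12.2% higher and 5.98% lower among all 16701 genes tested. With the adjusted p alone, PCDH17 joined the genes that rose and PCDHGC3 those that fell, giving 15.8% and 21.1% against 24.3% and 25.5% of all genes. The median log2 fold change was 0.28 over the 19 genes and 0.004 over all genes tested. PCDHB15, PCDHB16 and PCDHGB6 had KYSE450 means under 10 and passed the filter through KEAP1null-KYSE450, whereas PCDHB8 passed it through KYSE450. In bulk RNA, fewer cells expressing a gene and less RNA per cell cannot be told apart.

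**Figure D1:**
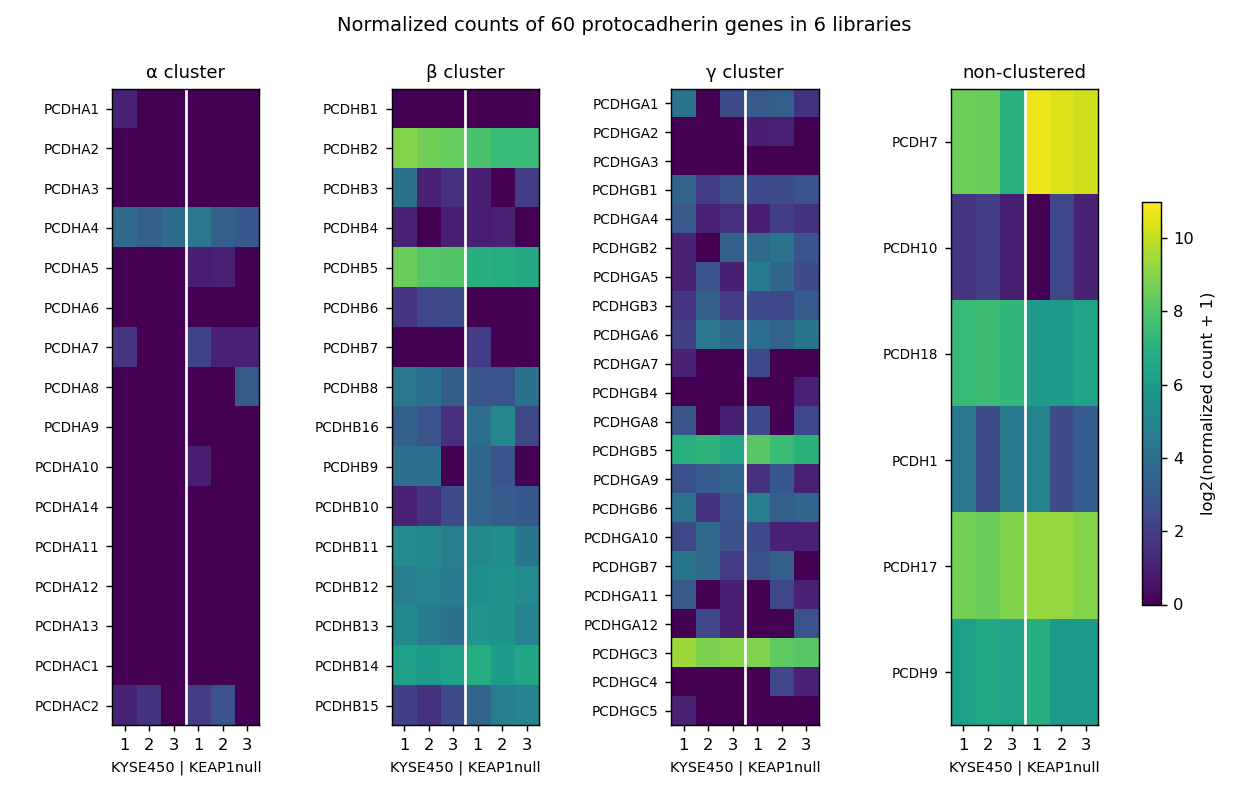
Normalized counts of all 60 protocadherin genes, as log2(normalized count + 1) in color, for the 3 KYSE450 libraries (left of the white line) and the 3 KEAP1null-KYSE450 libraries (right), with genes in chromosome order within each panel. The α panel is dark except for PCDHA4, a few rows stand out in the β and γ panels (PCDHB2, PCDHB5, PCDHB14, PCDHGB5 and PCDHGC3), and PCDH7 is the brightest row in KEAP1null-KYSE450.

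The α cluster was close to silent in both lines. Of its 16 genes, 9 were at 0 in each library, the pseudogene PCDHA14 among them, and 3 did not exceed the floor. PCDHA4 was the one α gene tested. Its normalized counts were 12.8, 9.10 and 14.0 in KYSE450 and 19.4, 9.17 and 7.06 in KEAP1null-KYSE450. The lines overlapped, and the log2 fold change was −0.11 (95% interval −1.31 to 1.09, adjusted p = 0.89, limma). PCDHA7, PCDHA8 and PCDHAC2 exceeded the floor in 1 KEAP1null-KYSE450 library each, and none did in KYSE450. Summed over the cluster, the normalized counts were 14.1 ± 3.00 (SD, n = 3) in KYSE450 and 20.4 ± 6.35 in KEAP1null-KYSE450.

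The β cluster was led by PCDHB2 and PCDHB5, and both fell. PCDHB2 had 504, 393 and 341 normalized counts in KYSE450 and 225, 172 and 169 in KEAP1null-KYSE450, a log2 fold change of −1.12 ± 0.19 (SE; adjusted p = 0.00035, limma). The lowest KYSE450 library was above the highest KEAP1null-KYSE450 library. Without KYSE450 library 1, the highest of all, the log2 fold change was −0.96 and PCDHB2 no longer met the fold threshold. PCDHB5 had 364, 274 and 269 in KYSE450 and 122, 110 and 99.9 in KEAP1null-KYSE450, again without overlap. The change was −1.43 ± 0.19 on the log2 scale (adjusted p = 5.7e-05, limma). Per kilobase of exon that no other gene covers, the level of PCDHB2 was 179 ± 36.1 and that of PCDHB5 104 ± 18.4 in KYSE450 (normalized counts per kb, SD, n = 3). With all exon bases counted, both levels were nearer, at 101 ± 20.3 and 88.6 ± 15.7.

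PCDHB15, the last β gene in chromosome order, went the other way. Its normalized counts were 3.21, 2.02 and 4.66 in KYSE450, where a single library exceeded the floor, and 11.1, 25.5 and 28.2 in KEAP1null-KYSE450. The ranges did not overlap, and the log2 fold change was 2.34 ± 0.62 (adjusted p = 0.0077, limma). The call was lost with quantile normalization (1.56, adjusted p = 0.050, limma) and on the whole reads recovered from 4 libraries (adjusted p = 0.056 with edgeR and 0.14 with DESeq2). These 4 leave out its highest KEAP1null-KYSE450 library and its lowest KYSE450 library.

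Between PCDHB5 and PCDHB15, the other 6 β genes tested did not pass. PCDHB12 had 24.6, 29.3 and 22.4 in KYSE450 and 44.3, 47.9 and 38.3 in KEAP1null-KYSE450, with no overlap (log2 fold change 0.75 ± 0.33, adjusted p = 0.073, limma). PCDHB13 had 37.4, 21.2 and 16.8 against 51.7, 51.0 and 29.3, so 1 library of each line overlapped (0.82 ± 0.40, adjusted p = 0.11, limma). It met both thresholds when KYSE450 library 1 was left out (1.13). PCDHB14, the third gene of the cluster by level, had 73.8, 64.7 and 76.5 against 111, 66.3 and 88.8 (0.28 ± 0.26, adjusted p = 0.40, limma). PCDHB11 had log2 fold change −0.05 (95% interval −0.92 to 0.82), PCDHB8 −0.61 (−1.88 to 0.66) and PCDHB16 1.21 (−0.50 to 2.92), with overlapping values in each case. These intervals include changes larger than the fold threshold for PCDHB8 and PCDHB16.

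Among the 7 β genes below the filter, 2 had values that did not overlap between the lines and are named after their values were seen. The share of such genes among all genes below the filter was not worked out, so no result is read from them. PCDHB10 had 1.07, 2.02 and 4.66 in KYSE450 and 11.1, 8.16 and 7.06 in KEAP1null-KYSE450. PCDHB6 had 2.14, 4.04 and 4.66 in KYSE450 and 0 in each KEAP1null-KYSE450 library, which allows up to the floor of 3 reads per library. Among the genes tested, 4 protocadherins were higher and 3 lower in every KEAP1null-KYSE450 library than in any KYSE450 library, which is 21.1% and 15.8% of 19, against 28.4% and 29.3% of all genes tested.

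**Figure D2:**
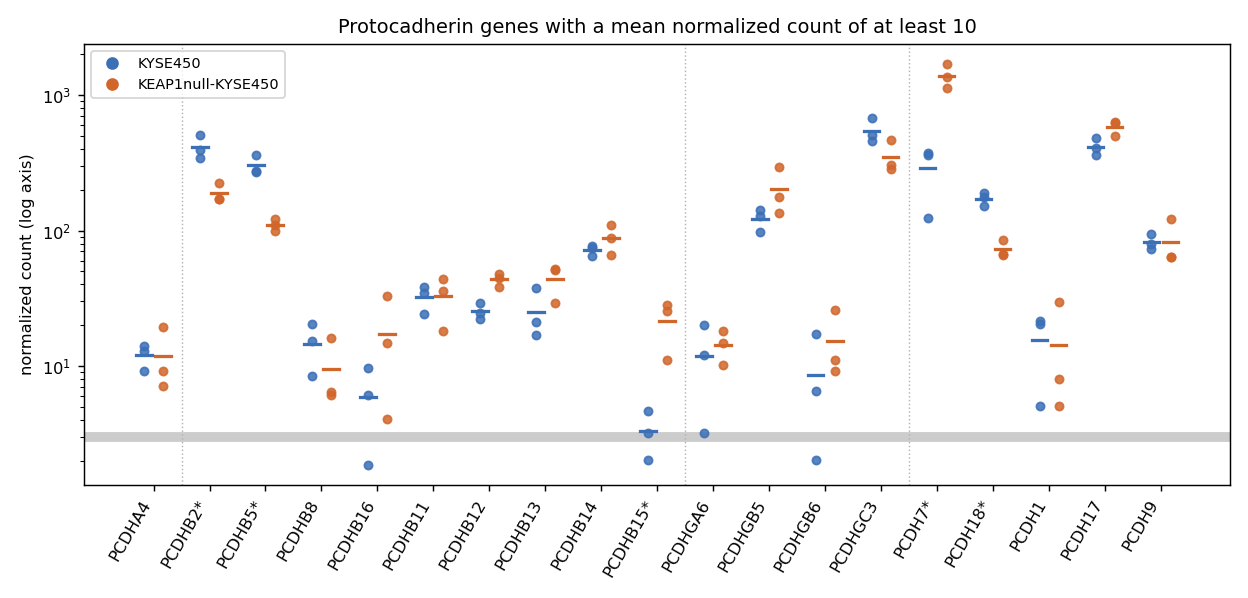
Normalized counts (log axis) of the 19 protocadherin genes tested in each library, blue for KYSE450 and orange for KEAP1null-KYSE450, with a short line at the mean of 3 libraries, a gray band at the floor of 3 reads and an asterisk for genes past both thresholds. PCDHB2, PCDHB5 and PCDH18 are lower in all orange points, PCDH7 and PCDHB15 are higher in all of them, and genes under about 30 normalized counts scatter widely within a line.

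The β sum was lower in KEAP1null-KYSE450. It was 1110, 862 and 777 normalized counts in KYSE450 and 650, 571 and 502 in KEAP1null-KYSE450, a ratio of means of 0.627 with no overlap. PCDHB2 and PCDHB5 together had 715 ± 135 (SD, n = 3) in KYSE450 and 300 ± 41.5 in KEAP1null-KYSE450. The other 14 β genes together were 202 ± 38.4 in KYSE450 and 275 ± 36.8 in KEAP1null-KYSE450. Their values overlapped, with 243 the highest in KYSE450 and 233 the lowest in KEAP1null-KYSE450. The pair made up 78.1%, 77.4% and 78.5% of the β sum in KYSE450 and 53.4%, 49.5% and 53.6% in KEAP1null-KYSE450. This share spread by 0.579 percentage points (SD) among KYSE450 libraries although the sums themselves ranged from 777 to 1110. The share of PCDHB14 was 8.0% ± 1.65 in KYSE450 and 15.4% ± 3.33 in KEAP1null-KYSE450, and that of PCDHB12 was 2.83% ± 0.593 and 7.61% ± 0.787. These shares are a description, with no test, and a gene's share rises as the pair falls even at an unchanged count.

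**Figure D3:**
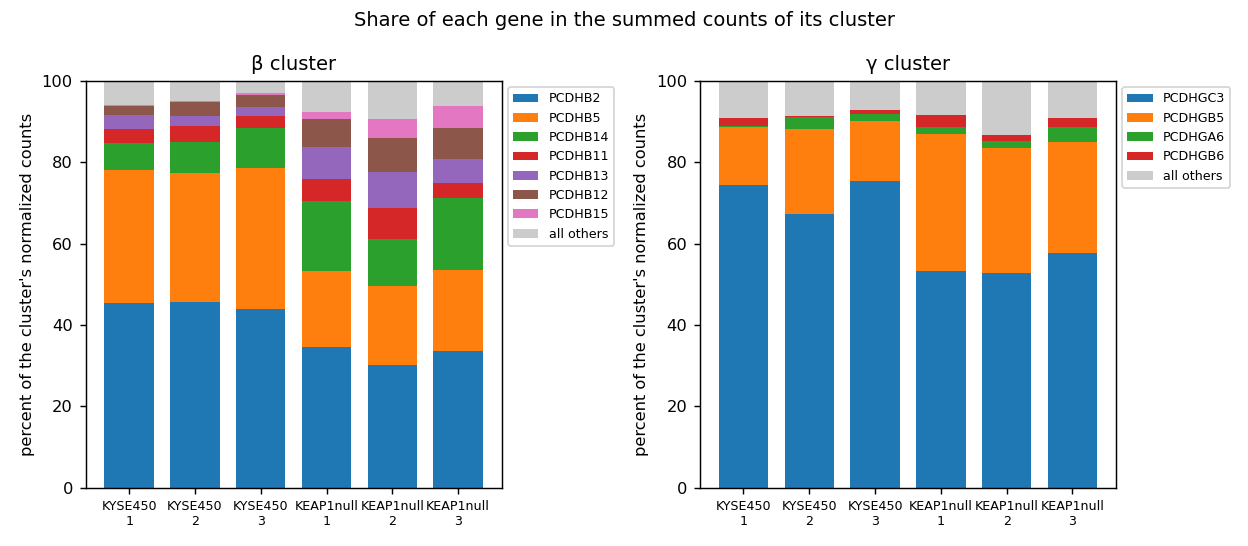
Percent of the summed normalized counts of the β cluster (left) and the γ cluster (right) that came from each named gene, 1 bar per library. PCDHB2 and PCDHB5 fill 77.4% to 78.5% of the β bars in KYSE450 and 49.5% to 53.6% in KEAP1null-KYSE450, and the PCDHGC3 part of the γ bars is smaller, and the PCDHGB5 part larger, in each KEAP1null-KYSE450 library.

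The γ cluster was led by PCDHGC3, a C-type isoform of a kind that many tissues express outside the choice among variable promoters. Its normalized counts were 674, 458 and 506 in KYSE450 and 465, 307 and 283 in KEAP1null-KYSE450. KEAP1null-KYSE450 library 1 lay just above the lowest KYSE450 library. The log2 fold change was −0.65 ± 0.20 (adjusted p = 0.017, limma), past the p threshold and short of the fold threshold. That p rose above 0.05 without KYSE450 library 1 (0.054), without KEAP1null-KYSE450 library 2 (0.073) or library 3 (0.085), without a trend in eBayes (0.074), and with edgeR (0.067) and DESeq2 (0.072) on 4 libraries. In level per kilobase of own exon, PCDHGC3 had 168 ± 34.8 in KYSE450, close to PCDHB2.

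PCDHGB5 was the other γ gene with a substantial level. It had 127, 142 and 97.9 normalized counts in KYSE450 and 294, 177 and 134 in KEAP1null-KYSE450, with overlap, for a log2 change of 0.66 ± 0.27 (adjusted p = 0.060, limma). On the whole reads of 4 libraries, which leave out its lowest KEAP1null-KYSE450 library and its highest KYSE450 library, it passed both thresholds with edgeR (1.11, adjusted p = 0.011) and DESeq2 (1.08, adjusted p = 0.012). Relative to PCDHGC3 in the same library, PCDHGB5 stood at 0.189, 0.309 and 0.193 in KYSE450 and 0.633, 0.578 and 0.473 in KEAP1null-KYSE450. This ratio did not overlap between the lines. The pair was picked with its values known and other pairs were not worked out, so no result is read from it. The share of PCDHGC3 in the γ sum was 72.5% ± 4.41 in KYSE450 and 54.6% ± 2.68 in KEAP1null-KYSE450, and that of PCDHGB5 16.5% ± 3.76 and 30.5% ± 3.19.

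The remaining γ genes were low. PCDHGA6 (log2 fold change 0.51, 95% interval −0.88 to 1.90) and PCDHGB6 (1.00, −0.56 to 2.56) were tested and did not pass. Of the 18 γ genes not tested, 1 was at 0 in all libraries and 3 did not exceed the floor. By type, the 12 A genes summed to 48.4 ± 8.02 in KYSE450 and 49.4 ± 10.5 in KEAP1null-KYSE450, and the 7 B genes to 157 ± 27.8 and 246 ± 92.9, mostly PCDHGB5. The 3 C genes summed to 546 ± 114 and 353 ± 97.5, nearly all PCDHGC3. The whole γ sum was 751 ± 133 and 648 ± 200, with overlapping values.

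PCDH7 rose from a level well above the floor. This gene, whose cytoplasmic tail binds protein phosphatase 1α, lies on chromosome 4 from 30720369 to 31146805. It had 376, 364 and 124 normalized counts in KYSE450 and 1695, 1349 and 1130 in KEAP1null-KYSE450. KYSE450 library 3 was well below the other KYSE450 libraries, and the lines stood apart. The log2 fold change was 2.41 ± 0.33 (adjusted p = 7.8e-05, limma), and it lay between 1.89 and 2.68 over 15 alternative settings, past both thresholds in all of them. An antisense transcript that covers 1602 of its 12903 exon bases has no row in the matrix under the identifier of the annotation.

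PCDH18, also on chromosome 4 (137518918 to 137532494, minus strand), fell. It had 175, 188 and 153 in KYSE450 and 65.5, 67.3 and 84.7 in KEAP1null-KYSE450, without overlap. The log2 fold change was −1.24 ± 0.21 (adjusted p = 0.00043, limma), and PCDH18 passed both thresholds under all 15 alternative settings. No other annotated gene overlaps its exons.

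PCDH17 and PCDH9 are on chromosome 13. PCDH17, like PCDH18 a member of the δ protocadherins that recruit the actin-regulating WAVE complex, had 407, 363 and 480 in KYSE450 and 629, 619 and 501 in KEAP1null-KYSE450. All KEAP1null-KYSE450 values were higher, the nearest by a small margin. The log2 fold change of 0.49 ± 0.15 (adjusted p = 0.018, limma) was past the p threshold alone. The adjusted p exceeded 0.05 without KYSE450 library 2 (0.080), without KEAP1null-KYSE450 library 1 (0.060) or library 2 (0.075), and with DESeq2 (0.077). With edgeR it was 0.050 after rounding, at the threshold. PCDH9 had 72.7, 95.0 and 79.2 against 121, 63.2 and 63.6, a log2 fold change of −0.06 (95% interval −0.68 to 0.57, adjusted p = 0.89, limma).

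PCDH1, known from airway epithelium, lies beyond the γ cluster on chromosome 5 and scattered within both lines. It had 20.3, 5.05 and 21.4 in KYSE450 and 29.5, 5.10 and 8.07 in KEAP1null-KYSE450 (log2 fold change −0.26, 95% interval −1.81 to 1.29, adjusted p = 0.79, limma). PCDH10 was near the floor, between 0 and 4.08, and was not tested. In level per kilobase of own exon, the order in KYSE450 was PCDH17 (53.9 ± 7.65), PCDH18 (25.7 ± 2.66) and PCDH7 (25.5 ± 12.6), the latter pair not separated by their spread. In KEAP1null-KYSE450 it was PCDH7 (123 ± 25.2), PCDH17 (75.4 ± 9.18) and PCDH18 (10.8 ± 1.59). The sum of the 6 genes was 977 ± 104 in KYSE450 and 2150 ± 377 in KEAP1null-KYSE450, and PCDH7 accounted for most of that difference.

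**Figure D4:**
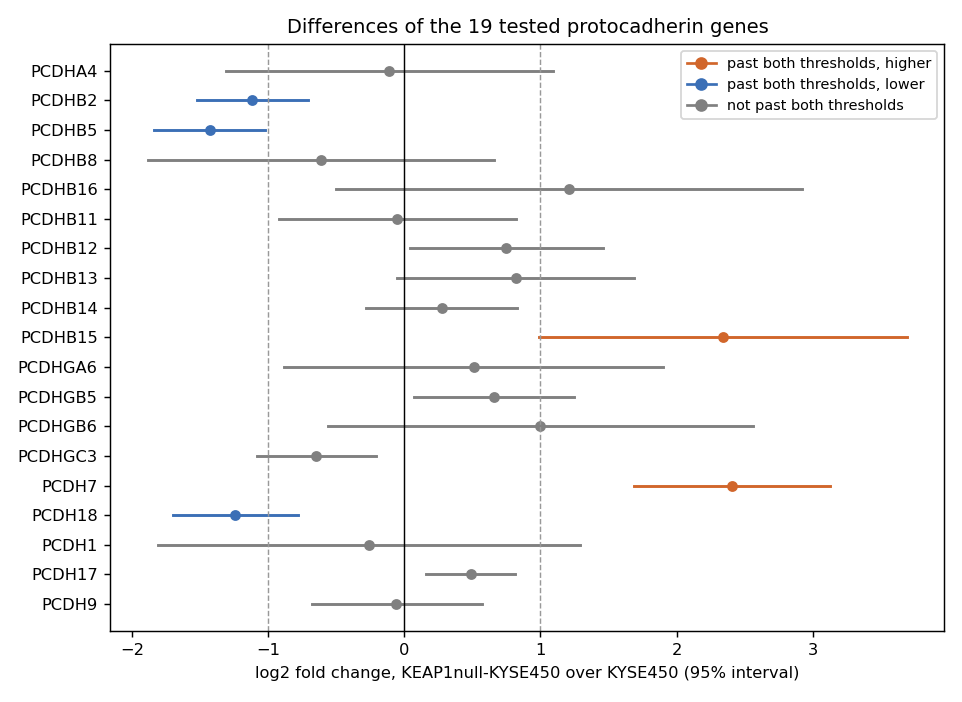
Log2 fold change (KEAP1null-KYSE450 over KYSE450) of the 19 tested protocadherin genes with unadjusted 95% intervals from limma, on the log2(normalized count + 1) scale. Dashed lines mark a log2 fold change of 1 in either direction, and genes past both thresholds are colored: PCDHB2, PCDHB5 and PCDH18 to the left, PCDHB15 and PCDH7 to the right.

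Related genes outside the chosen set were read from lists. Of 6 other protocadherins 2 were tested. PCDH19, which also binds the WAVE complex, had 4122, 3072 and 2460 in KYSE450 and 145, 58.1 and 92.8 in KEAP1null-KYSE450, a log2 fold change of −5.08 (adjusted p = 1.7e-08, limma). Its KYSE450 level was above that of any gene of the chosen set. PCDH15 did not pass (1.57, adjusted p = 0.17, limma), and PCDH8, PCDH11X, PCDH12 and PCDH20 were not tested. Of 9 large cadherins of the FAT, Dachsous and CELSR families, all tested, DCHS1 rose (2.01, adjusted p = 0.0093, limma) and FAT3 fell (−4.80, adjusted p = 4.0e-08, limma), against 12.2% and 5.98% of all genes tested, with a median log2 fold change of 0.43.

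Among 19 chromatin and cohesin regulators, a group that includes known regulators of the clusters, none passed both thresholds, and 10 were lower with the adjusted p alone, against 25.5% of all genes. The median log2 fold change was −0.33. The lower genes included DNMT1, the maintenance DNA methyltransferase (−0.77, adjusted p = 0.00019, limma), and the cohesin subunits SMC1A (−0.63, adjusted p = 0.0040) and SMC3 (−0.61, adjusted p = 0.00088). CTCF, the factor that binds the promoters and the distal enhancers of the clusters, had a log2 fold change of −0.25 (adjusted p = 0.065, limma), and SMCHD1, a repressor of the clusters, −0.25 (adjusted p = 0.078, limma). Of 20 signalling and processing partners reported here, such as the kinases that bind the α and γ constant region and the proteases that cleave the proteins, 1 fell, the γ-secretase subunit PSEN2 (−1.07, adjusted p = 2.7e-05, limma). None rose past both thresholds, where all genes tested had 12.2% higher and 5.98% lower. With the adjusted p alone 3 of the 20 were higher and 7 lower, against 24.3% and 25.5% of all genes tested. The median log2 fold change was −0.15.

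Neighbouring genes on chromosome 5 were compared to see whether the region moved as a block. Of 39 neighbours 33 were tested, of which CXXC5 rose (1.48), HBEGF (−1.55) and DIAPH1 (−1.05) fell, against 12.2% higher and 5.98% lower among all genes tested. With the adjusted p alone 7 of the 33 were higher and 8 lower, against 24.3% and 25.5% of all genes tested. The median log2 fold change was −0.03. DIAPH1, an actin nucleator, starts just past the γ cluster at 141515016. TAF7, which lies between the β and γ clusters, had a log2 fold change of 0.45 (adjusted p = 0.0038, limma). In chromosome order, the β genes tested had −1.12 (PCDHB2), −1.43 (PCDHB5), −0.61, 1.21, −0.05, 0.75, 0.82, 0.28 and 2.34 (PCDHB15). A trend along the cluster was not tested. The γ genes tested had 0.51 (PCDHGA6), 0.66, 1.00 and −0.65 (PCDHGC3). PCDHB15 is the low gene whose call was lost under the settings named above.

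**Figure D5:**
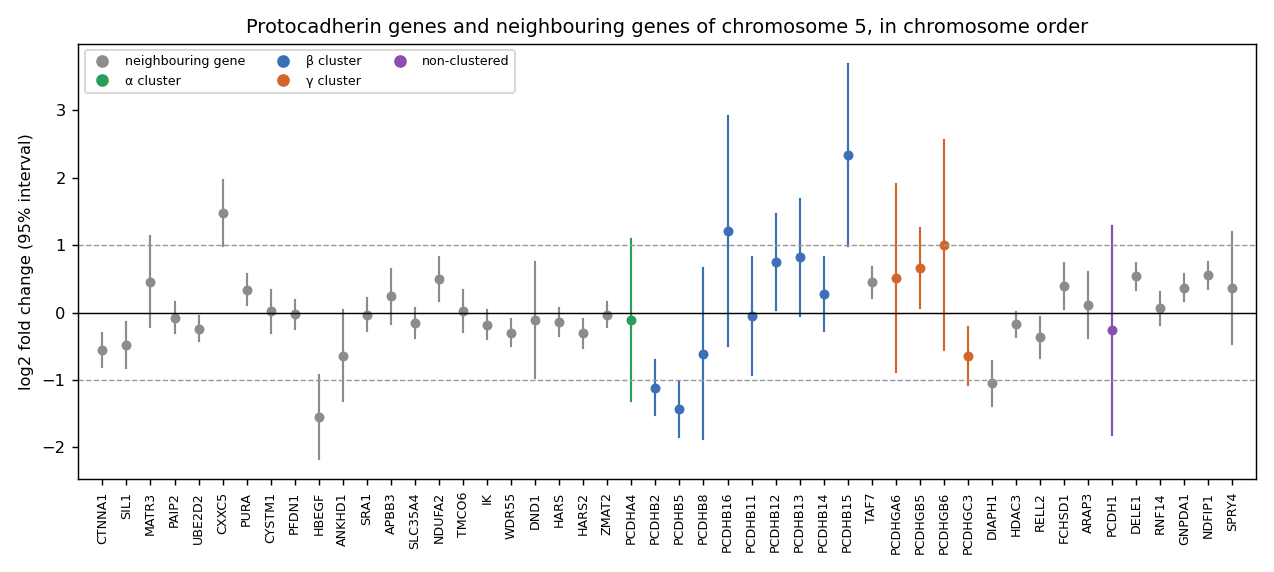
Log2 fold change (KEAP1null-KYSE450 over KYSE450, unadjusted 95% interval from limma) of tested protocadherin genes and neighbouring genes, in their order along chromosome 5 with even spacing. Gray neighbours lie mostly between −1 and 1, with CXXC5 above and HBEGF and DIAPH1 below, while the β genes (blue) span from −1.43 to 2.34.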

How the data were processed

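RNA was sequenced from 3 KYSE450 and 3 KEAP1null-KYSE450 libraries. Per the methods and the submitters' processing notes, the authors trimmed and aligned reads to hg38 with STAR and counted them per gene with featureCounts. The deposited values are normalized counts, a signal per gene that equals reads divided by 1 factor per library. The methods name RefSeq, while the matrix carries Ensembl identifiers, and all 60 protocadherin identifiers were in gencode v44. No column belonged to another sample.

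The 16701 genes whose mean reached 10 were fitted on log2(normalized count + 1) by limma 3.58.1 under R 4.3.3 (lmFit, eBayes with a trend), two-sided with Benjamini-Hochberg adjustment. Folds on this scale understate changes of low genes. In all 6 libraries 100% of values were whole multiples of 1 step within 0.1. No reads were recovered for library 2 of KYSE450 and library 3 of KEAP1null-KYSE450, although their values were whole multiples of a step (1.01) too. Reads were recovered for the other 4 (53027359 to 61543442 each), on which edgeR 4.0.16 (TMM, quasi-likelihood) and DESeq2 1.42.0 were run. They called 1826 and 1623 genes higher and 872 and 877 lower, against 2045 and 999 with limma. The limma and edgeR fits were tried on simulated counts with known folds, while DESeq2, the recovery of reads, the sums and the promoter search were not. Sums, shares and levels per kilobase are descriptions with no test.

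Protocadherins past both thresholds, other tested protocadherins, KEAP1 and genes of marker, partner, regulator and neighbour lists were named. The genes, lists and tests were chosen with earlier results of these data known. In the partner list, 1 gene is not reported here.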

Additional observations from a re-analysis of the deposited data

How the results depend on the processing

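Alternatives were a lower and a higher pseudocount (0.1, 10), testing every detected gene, raising the filter to a mean of 100, equal library totals, quantile normalization, no trend in eBayes, each library left out, edgeR and DESeq2 on 4 libraries, the adjusted p alone and, for sums, leaving out the highest gene. The count of 2 higher genes became 1 with the filter at 100, where PCDHB15 was not tested, and 1 with quantile normalization, and was 2 to 3 with a library left out. The edgeR and DESeq2 calls were PCDH7 and PCDHGB5 instead of PCDH7 and PCDHB15. The 3 lower genes became 2 without KYSE450 library 1 (PCDHB2 lost), and 4 when every detected gene was tested (PCDHB6 added). Quantile normalization also moved the split over all genes from 2045 higher and 999 lower to 1388 and 1289; the cause was not tested. The α sum, with a log2 ratio of 0.53, moved to −0.08 with quantile normalization and 2.02 without PCDHA4. Without its highest gene the γ sum moved from −0.21 to 0.53 and the non-clustered sum from 1.13 to 0.13. Signs turned for 6 genes that passed under no setting. With a library left out, the log2 fold change ranged from −0.50 to 0.17 for PCDHA4, −0.30 to 0.31 for PCDHB11, −0.15 to 1.01 for PCDHGA6, −0.94 to 0.22 for PCDH1 and −0.36 to 0.10 for PCDH9. On recovered reads it was 0.13 with edgeR and 0.10 with DESeq2 for PCDHA4, 0.39 and 0.36 for PCDHB11, and 0.31 and 0.28 for PCDH9. With quantile normalization it was −0.13 for PCDHB14 and −0.22 for PCDHGA6. No paired analysis was possible because the columns of the matrix carry no replicate numbers. The filter left 41 of the 60 genes untested, 11 of them at 0 in all libraries, and a gene at 0 may still have up to 3 reads' worth of signal.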
